A study of Mus musculus with 20 samples.

Results

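The insulin granule of the pancreatic beta cell holds insulin, amylin and a set of helper proteins, and 10 genes of this cargo and of the machinery that processes it were followed here in MIN6 cells. They were Ins2, Iapp, Chga, Chgb, Scg2, Scg3, Scg5, Pcsk1, Pcsk1n and Cpe. Taking every probe set annotated to only 1 of these genes gave 14 of the 20380 probe sets that had a single gene. Iapp had 4 probe sets, Cpe had 2, and the other 8 genes had 1 each. All 14 lay above the filter on low values, which kept 12228 probe sets for testing.

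MIN6 is a mouse beta cell line grown from an insulinoma of transgenic mice in which the insulin promoter drives a viral large T antigen, so the cells divide and are not primary islet cells. At each of 2 glucose levels, 22.7 and 5.5 mM, 9 cultures received human amylin at 1, 10 or 20 µM for 2, 12 or 24 h, and 1 stayed untreated. Total RNA of each of the 20 conditions was hybridised to 1 Affymetrix mouse array. Nothing in the labels separates repeat cultures, so errors and p-values here measure the spread between single arrays of matched conditions. In RNA from a whole culture, fewer beta-like cells and less RNA per cell cannot be told apart.

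Beta cells store hormone precursors in dense-core granules, where the convertases encoded by Pcsk1 and Pcsk2 cut at basic residues and carboxypeptidase E, encoded by Cpe, trims the exposed ends. Granins (Chga, Chgb, Scg2, Scg3) aggregate in the trans-Golgi network and help sort cargo into budding granules, while Pcsk1n and Scg5 encode small proteins that bind the convertases. Glucose is known to raise the synthesis of proinsulin and of several of these proteins, in large part at the level of translation.

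Promoter sequences of RefSeq on GRCm38.p6, each running from 250 bases before to 50 after the annotated start, were listed for 8 of the 10 genes; Ins2 and Cpe are named only. The 4 shown first carry a cAMP response element, the palindrome TGACGTCA, or its variant TGACGTAA, which are printed in capitals. They are shown because genes of different roles share these letters a short way before the start, and their values can be read side by side below. On both strands, TGACGTCA was found in 3 of the 8 promoters, against 1.79% of 32851 promoters of the same length. It began 68 bases before the start of Scg2 (chr1:79439977-79440276, minus strand), 72 bases before that of Chgb (chr2:132781392-132781691, plus strand) and 78 bases before that of Pcsk1 (chr13:75089607-75089906, plus strand). TGACGTAA, held by 0.499% of all promoters, began 44 bases before the start of Chga (chr12:102554691-102554990, plus strand).
Scg2 promoter: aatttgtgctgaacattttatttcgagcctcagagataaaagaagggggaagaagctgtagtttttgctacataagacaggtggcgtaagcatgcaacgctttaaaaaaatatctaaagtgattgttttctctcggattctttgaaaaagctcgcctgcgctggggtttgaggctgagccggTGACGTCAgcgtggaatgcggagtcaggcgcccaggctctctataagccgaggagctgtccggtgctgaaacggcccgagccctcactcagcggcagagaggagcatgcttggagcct
Chgb promoter: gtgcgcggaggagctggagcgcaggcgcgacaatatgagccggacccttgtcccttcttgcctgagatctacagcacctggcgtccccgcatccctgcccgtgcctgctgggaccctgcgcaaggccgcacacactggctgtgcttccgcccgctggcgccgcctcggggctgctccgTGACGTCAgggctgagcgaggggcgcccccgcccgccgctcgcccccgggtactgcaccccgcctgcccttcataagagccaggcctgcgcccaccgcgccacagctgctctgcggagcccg
Pcsk1 promoter: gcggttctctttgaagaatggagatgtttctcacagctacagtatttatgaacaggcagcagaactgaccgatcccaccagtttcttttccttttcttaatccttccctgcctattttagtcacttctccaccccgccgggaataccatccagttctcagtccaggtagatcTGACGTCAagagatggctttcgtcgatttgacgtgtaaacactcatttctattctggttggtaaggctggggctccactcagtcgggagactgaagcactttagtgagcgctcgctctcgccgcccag
Chga promoter: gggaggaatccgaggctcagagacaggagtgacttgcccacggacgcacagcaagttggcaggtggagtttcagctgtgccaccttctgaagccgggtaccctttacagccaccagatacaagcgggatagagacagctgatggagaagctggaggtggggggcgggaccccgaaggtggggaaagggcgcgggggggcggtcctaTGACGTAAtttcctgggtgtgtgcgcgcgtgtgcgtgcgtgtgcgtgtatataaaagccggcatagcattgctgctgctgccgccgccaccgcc

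The shorter TGACG, which lies within both longer motifs, was in 6 of the 8 promoters and in 20.8% of all. Letters matching the E-box CACGTG were in none of the 8 and in 7.15% of all. The Iapp promoter (chr6:142298175-142298474, plus strand) is shown because Iapp encodes the mouse form of the peptide that was added to the cells. It held TAAT, the core letters read by homeodomain factors such as Pdx1, 5 times on either strand (in capitals), starting 154, 136, 74, 72 and 10 bases before the start, those at 74 and 72 overlapping. At least 1 TAAT was in 58% of all promoters and 5 or more in 6.86%. These matches describe letters in a window and do not show binding.
Iapp promoter: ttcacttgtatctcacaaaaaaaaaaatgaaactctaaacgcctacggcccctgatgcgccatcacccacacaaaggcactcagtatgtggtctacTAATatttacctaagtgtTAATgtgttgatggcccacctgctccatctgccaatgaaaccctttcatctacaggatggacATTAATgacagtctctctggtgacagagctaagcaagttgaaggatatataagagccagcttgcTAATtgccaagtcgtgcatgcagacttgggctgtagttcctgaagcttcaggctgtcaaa

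Of 15 beta cell markers listed, 12 had a probe set and all 12 lay above the filter, with mean log2 values of 7.19 to 14.65. Among markers of other cells, 3 of 6 other islet endocrine, 1 of 7 fibroblast, 2 of 4 acinar, 1 of 4 duct and 2 of 6 immune and endothelial genes with a probe set lay above it, and the glucagon gene Gcg had a mean of 11.23. The array of 22.7 mM glucose, 1 µM amylin and 12 h and that of 5.5 mM glucose, 10 µM amylin and 24 h, the 2 with no scanner description, stood apart from the other 18. Their medians were 7.25 and 7.28 against 7.04 to 7.15, and their mean correlations with the other arrays were 0.97 and 0.96 against 0.985 to 0.99. On these 2 arrays the mean of the fibroblast markers was 6.32 to 6.35 against 5.62 to 5.91 on the other 18, that of the acinar markers was 6.93 against 6.18 to 6.54, that of the immune and endothelial markers was 6.29 to 6.64 against 5.92 to 6.21, and that of the beta cell markers was 10.83 to 10.96 against 11.1 to 11.42. Of the beta cell markers, Kcnj11 (mean 7.54 against 7.15), Ins2 (14.68 against 14.64) and Iapp (13.78 against 13.77) were higher on these arrays, and the others were lower. Ins2 and Iapp are also members of the granule set. The duct markers (7.24 to 7.49 against 6.99 to 7.41) and other islet endocrine markers (7.46 to 7.71 against 7 to 7.67) overlapped. The actin 3′ minus 5′ signal, which grows as RNA breaks down or is copied short, averaged 1.83 at 22.7 mM and 1.22 at 5.5 mM, and in each of the 10 pairs the array at 22.7 mM had more. Glucose results are therefore given with all 20 arrays and with the 18, and other results also with the 18 where they rest on these arrays.

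**Figure D1:**
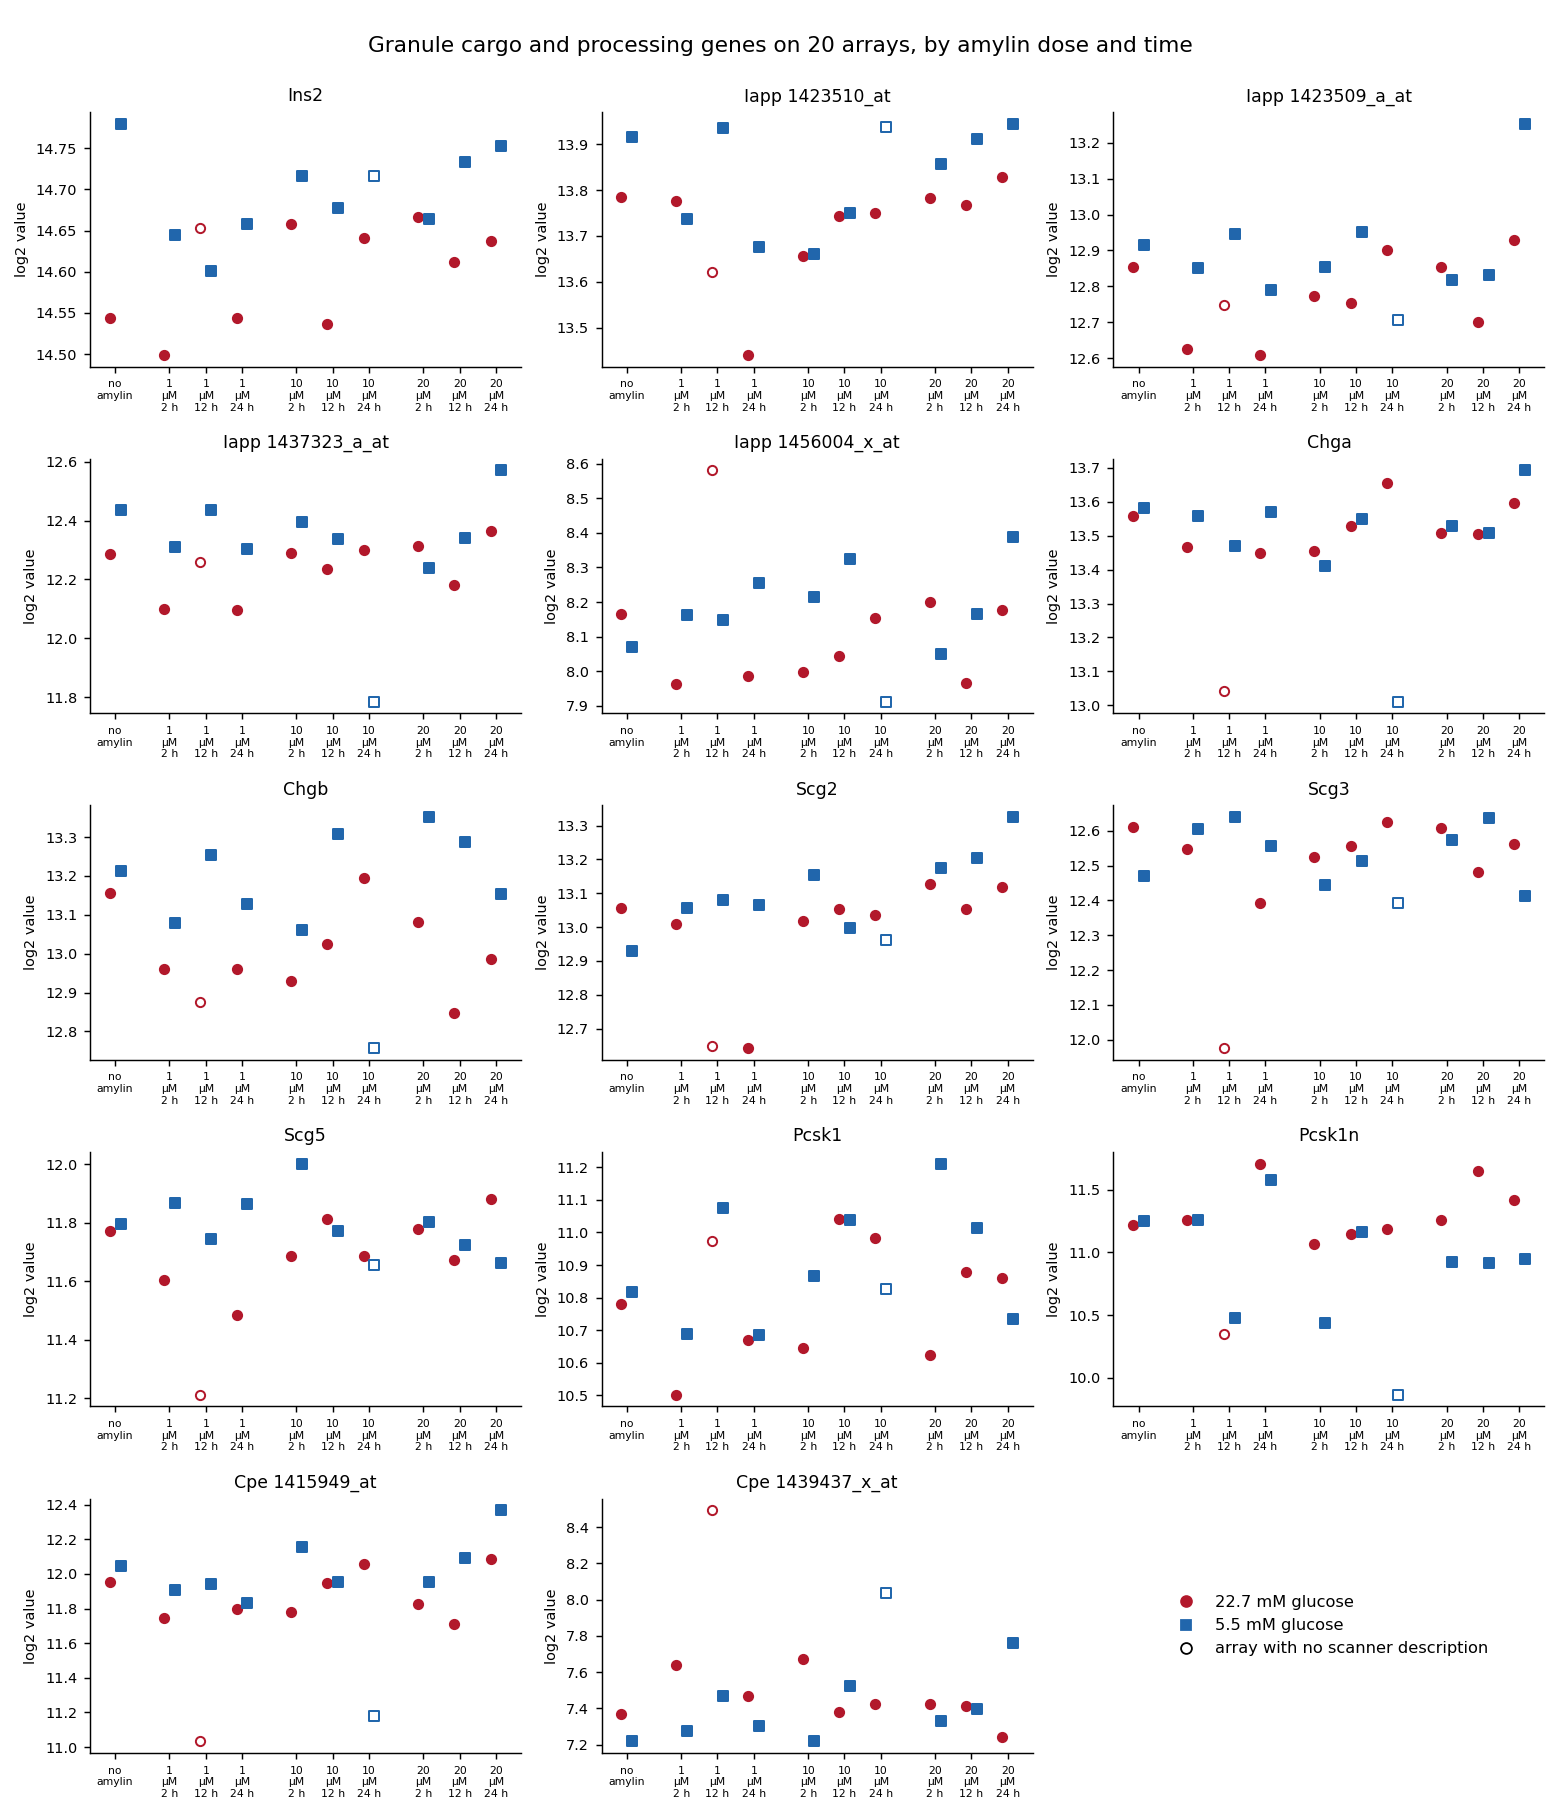
Log2 value of each of the 14 probe sets (vertical axes, which differ between panels) on the 20 arrays, by amylin dose and time (horizontal axes), with red circles for 22.7 mM and blue squares for 5.5 mM glucose and open symbols for the 2 arrays with no scanner description. For Chga, Scg3, Pcsk1n and Cpe 1415949_at both open symbols lie below all filled ones (for Scg3 the upper one is level with the lowest filled one, at 12.39), and for Cpe 1439437_x_at both lie above.

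The comparison of 22.7 with 5.5 mM glucose asked whether the granule genes differ with the glucose level across matched amylin conditions. On the 20 arrays 0 of the 14 probe sets passed the limma test at an adjusted p of 0.05, where 993 of 12228 probe sets did (8.12%, 420 higher and 573 lower), and 4 had an unadjusted p under 0.05 (1 higher, 3 lower), as did 23.2% of all. Of the 14 differences 12 were negative, with a median of −0.098 against 0.02 for all tested probe sets. The 14 share the same arrays and several are of the same gene, so these signs are not independent. The share of negative differences among all probe sets is not given here. Without the 2 arrays that stood apart, Chgb, Cpe and Ins2 fell and Pcsk1n rose, each by at most 0.28 on the log2 scale. These 4 of 14 calls stand beside 1640 of 12228 (13.4%) for all probe sets in the same 18 arrays and 8 complete pairs.

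Ins2 encodes one of the mouse insulins, and its probe set, whose name marks probes that can match other sequences, may also pick up its near copy Ins1, which was not analysed here. At 22.7 mM its lowest, median and highest log2 values were 14.50, 14.62 and 14.67, against 14.60, 14.70 and 14.78 at 5.5 mM. All 10 arrays at 22.7 mM lay below the median of those at 5.5 mM, and 4 of them below every array at 5.5 mM, although the groups overlapped. The difference was −0.10 (SE 0.039, 95% interval −0.18 to −0.01), lower in 8 of 10 pairs, with a limma adjusted p of 0.155. Ins2 fell by 0.12 in the 18 arrays (SE 0.036, adjusted p = 0.0428). The signal of Ins2 was the highest of all single-gene probe sets on all 20 arrays, and it took only 17 distinct values, 6 arrays sharing a value exactly with another. Quantile normalizing the arrays again gives a probe set that ranks first of all on every array the same value, and so a difference of 0 by construction. The rank of Ins2 was taken among single-gene probe sets only. At the top of the scale a difference, and the spread between arrays, may be compressed, and how far was not tested.

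Iapp was measured by 4 probe sets. The brightest, 1423510_at, had a lowest, median and highest value of 13.44, 13.76 and 13.83 at 22.7 mM, against 13.66, 13.88 and 13.94 at 5.5 mM. Again all 10 arrays at 22.7 mM lay below the median of those at 5.5 mM and the groups overlapped. Its difference was −0.12 (SE 0.046, adjusted p = 0.136), lower in 9 of 10 pairs, and −0.08 in the 18 arrays (adjusted p = 0.206). The probe sets 1423509_a_at, 1437323_a_at and 1456004_x_at differed by −0.12, −0.07 and −0.04 on the 20 arrays and by −0.15, −0.13 and −0.14 on the 18, with adjusted p of 0.0622 to 0.201 on the 18. None of the 4 passed in either set of arrays.

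Chgb encodes chromogranin B, an acidic granule protein that binds calcium. Its lowest, median and highest values were 12.85, 12.97 and 13.19 at 22.7 mM, against 12.76, 13.18 and 13.35 at 5.5 mM. The lowest value at 5.5 mM came from the array of 10 µM and 24 h that stood apart, and without it the 9 remaining arrays at 5.5 mM ran from 13.06 to 13.35. The difference was −0.16 (SE 0.071, adjusted p = 0.2), lower in 9 of 10 pairs. In the 18 arrays Chgb fell by 0.20 (SE 0.049, 0.868-fold, adjusted p = 0.0133), lower in 8 of 8 pairs. Leaving out the array of 5.5 mM, 10 µM and 24 h alone, or its partner at 22.7 mM, gave −0.22 (adjusted p = 0.00785 and 0.00763), in fits that called 12.4% of all probe sets each. Cpe passed in both of those fits as well (−0.26, adjusted p = 0.0428 and 0.0426), and Iapp 1423509_a_at in the fit without the partner at 22.7 mM (−0.15, adjusted p = 0.0492).

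The other granins did not pass in either set. Chga, the chromogranin gene whose peptides include pancreastatin, had a lowest, median and highest value of 13.04, 13.51 and 13.66 at 22.7 mM, against 13.01, 13.54 and 13.69 at 5.5 mM. Both lowest values were from the arrays that stood apart. Its difference was −0.01 (SE 0.076, adjusted p = 0.953), and −0.04 in the 18 arrays (adjusted p = 0.538). Scg2, the precursor of secretoneurin, ranged from 12.64 to 13.13 at 22.7 mM, against 12.93 to 13.33 at 5.5 mM, and differed by −0.12 (SE 0.062, adjusted p = 0.276), or −0.10 in the 18 arrays (adjusted p = 0.255). Scg3, whose product links chromogranin A to granule membranes, ranged from 11.97 to 12.63 at 22.7 mM, against 12.39 to 12.64 at 5.5 mM, and differed by −0.04 (SE 0.076, adjusted p = 0.84). Both lowest values were again from the arrays that stood apart, and in the 18 arrays the difference was 0.01 (adjusted p = 0.938).

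Among the processing genes, Pcsk1n had the largest difference with glucose of the 14 probe sets. It encodes proSAAS, a granin-like protein that inhibits the Pcsk1 convertase. Its lowest, median and highest values were 10.35, 11.24 and 11.71 at 22.7 mM, against 9.86, 10.93 and 11.57 at 5.5 mM, and 9 of the 10 arrays at 22.7 mM lay above the median of those at 5.5 mM. The difference was 0.35 (SE 0.121, 1.27-fold, 95% interval 1.06 to 1.52-fold, adjusted p = 0.0968), higher in 7 of 10 pairs, from −0.13 to 1.33. The pair with the difference of 1.33 held the array of 5.5 mM that stood apart. In the 18 arrays Pcsk1n rose by 0.28 (SE 0.089, adjusted p = 0.0473), higher in 6 of 8 pairs. Of those 8 pairs, 4 differed by 0.34 to 0.73 (10 µM at 2 h, and 20 µM at 2, 12 and 24 h) and the other 4 by −0.04 to 0.13. The effect of dose on Pcsk1n differed between the glucose levels by 0.51 on 20 arrays (SE 0.478, adjusted p = 0.94) and by 0.08 on 18 (adjusted p = 0.998).

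Cpe was read by 2 probe sets. The brighter, 1415949_at, had a lowest, median and highest value of 11.03, 11.81 and 12.08 at 22.7 mM, against 11.18, 11.95 and 12.37 at 5.5 mM, and both lowest values were from the arrays that stood apart. The difference was −0.15 (SE 0.118, adjusted p = 0.499) on 20 arrays, and Cpe fell by 0.18 in the 18 (SE 0.058, adjusted p = 0.0497), lower in 8 of 8 pairs. The dimmer 1439437_x_at differed by 0.10 (SE 0.127, adjusted p = 0.71) and by 0.07 in the 18 arrays (adjusted p = 0.659), so the pair of probe sets did not give the same sign. Its mean over the 20 arrays was 7.5, not far above the filter cutoff of 6.71. Like that of the Ins2 probe set, its name marks probes that can match other sequences.

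The convertase gene Pcsk1 itself differed by −0.10 (SE 0.071, adjusted p = 0.44). It ranged from 10.50 to 11.04 at 22.7 mM, against 10.69 to 11.21 at 5.5 mM. Scg5, whose product is a chaperone and inhibitor of the convertase encoded by Pcsk2, differed by −0.13 (SE 0.073, adjusted p = 0.313), with values of 11.21 to 11.88 at 22.7 mM, against 11.65 to 12.00 at 5.5 mM. Neither passed in the 18 arrays, where Pcsk1 differed by −0.13 (adjusted p = 0.258) and Scg5 by −0.10 (adjusted p = 0.368). The 11.21 of Scg5 was from the array that stood apart.

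**Figure D2:**
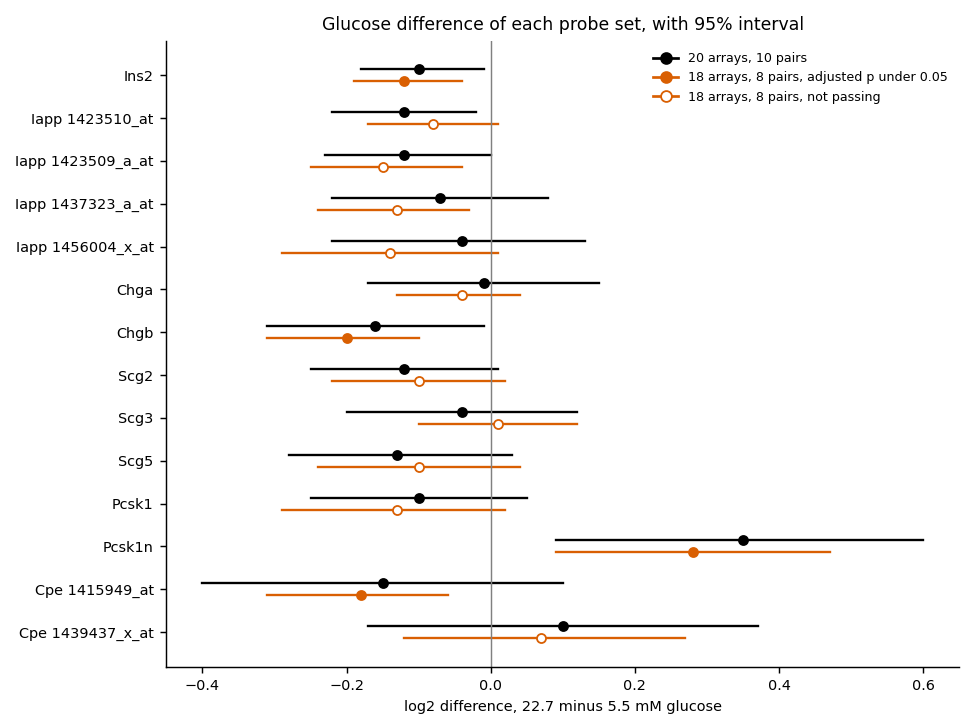
Log2 difference, 22.7 minus 5.5 mM glucose, of each probe set (rows) with its 95% interval, in black for 20 arrays and in orange for the 18 arrays with a scanner description. Filled orange symbols mark the 4 probe sets that passed in the 18 arrays, Ins2 (−0.12), Chgb (−0.20), Pcsk1n (0.28) and Cpe 1415949_at (−0.18); no black symbol passed.

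Scan day and the actin signal moved with glucose. The arrays at 22.7 mM numbered 0, 1, 4 and 4 on scan days 1 to 4, against 1, 3, 3 and 2 at 5.5 mM. Within days 2, 3 and 4 Chgb differed by −0.13, −0.25 and −0.08, Ins2 by −0.03, −0.16 and −0.08, Cpe 1415949_at by −0.14, −0.32 and −0.05 and Pcsk1n by 0.11, 0.31 and 0.35, the arrays of a day not being matched on amylin condition. All 12 of these differences had the sign seen without regard to day. However, these probe sets are the ones that passed in the arrays with a scanner description, and the split by day reuses those arrays. The shared signs are therefore not an independent test, and day 2 rests on 1 array at 22.7 mM. Some other members changed sign between days, among them Chga and Pcsk1, while Scg5 did not. Fits with scan day leave out the 2 arrays of unknown day, and the matched fit with day as a block also the single array of day 1. The fits of glucose interactions with day as a block, given below, keep that array. With day blocked in the matched model Chgb (−0.23, adjusted p = 0.0115) and Pcsk1n (0.38, adjusted p = 0.0131) passed among 2006 of all probe sets (16.4%), and with scan day in an additive model only Pcsk1n did (0.34, adjusted p = 0.00872) among 1858 (15.2%). The actin 3′ minus 5′ signal was added as a covariate on all 20 arrays, where 0 of the 14 had passed without it. Chgb then differed by −0.12 (SE 0.129), Ins2 by −0.07 (SE 0.072), Cpe 1415949_at by 0.00 (SE 0.207) and Pcsk1n by 0.44 (SE 0.216). In that fit 0 of 12228 probe sets passed. RNA quality and glucose cannot be told apart for these genes.

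The comparison of the 18 amylin-treated arrays with the 2 untreated ones asked what human amylin did on average over doses and times. By limma 0 of 14 probe sets passed and 0 had an unadjusted p under 0.05, where 0 of all 12228 passed (0%) and 657 (5.37%) had an unadjusted p under 0.05. Differences ran from −0.20 (Pcsk1n, 95% interval −0.63 to 0.23) to 0.23 (Cpe 1439437_x_at, −0.22 to 0.68), with adjusted p of 0.79 to 0.944. In the 18 arrays these were −0.12 and 0.14, and Pcsk1n was at 0.09 with scan day in the additive model. Ins2 had the narrowest interval, at −0.02 (−0.16 to 0.12), and the Iapp probe set 1423510_at was at −0.09 (−0.25 to 0.08).

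For Ins2 the untreated array lay within the treated ones at 22.7 mM and above all of them at 5.5 mM. At 22.7 mM the 9 treated arrays ran from 14.50 to 14.67 with a median of 14.64, against 14.54 untreated, and 6 lay above it, 2 below and 1 at the same value. At 5.5 mM they ran from 14.60 to 14.75 with a median of 14.68, against 14.78 untreated, and all 9 lay below it. The difference between glucose levels in the effect of amylin was 0.16 (SE 0.13, adjusted p = 1). For Scg2 the untreated array lay within the treated ones at 22.7 mM and below all of them at 5.5 mM, with 2 of 9 treated arrays at 22.7 mM above the untreated value of 13.06, and 9 of 9 at 5.5 mM above 12.93 (difference −0.27, SE 0.183, adjusted p = 1).

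Time of exposure was compared at 2, 12 and 24 h in 6 sets matched on dose and glucose. By limma 0 of the 14 probe sets passed between 24 and 2 h, where 2 of 12228 did (0.0164%), and 0 of the 14 had an unadjusted p under 0.05, against 7.62% of all. Between 12 and 2 h 0 of the 14 passed, where 10 of all did (0.0818%), and 1 had an unadjusted p under 0.05, against 7.83% of all. Between 24 and 12 h 0 of the 14 and 0 of all passed (0%), and 1 had an unadjusted p under 0.05, against 4.41% of all. The 1 probe set was Pcsk1 in both, the convertase that makes the first cut in proinsulin. Pcsk1 averaged 10.76 ± 0.252 at 2 h, 11.00 ± 0.0702 at 12 h and 10.79 ± 0.12 at 24 h (SD, n = 6 each). Between 12 and 2 h it differed by 0.25 (SE 0.092, limma adjusted p = 0.483), higher at 12 h in 5 of 6 pairs, and between 24 and 12 h by −0.21 (adjusted p = 0.998), lower at 24 h in 6 of 6. In the 18 arrays Pcsk1 differed by 0.24 between 12 and 2 h and by −0.16 between 24 and 12 h (95% interval −0.37 to 0.06). With scan day in the additive model these were 0.22 and −0.11. At 12 h its 6 values lay between 10.88 and 11.08, a narrower span than at 2 h (10.50 to 11.21).

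The 24 h values of Pcsk1 lay on opposite sides of the 2 h values at the 2 glucose levels, in a test that did not pass. At 22.7 mM its values were 10.50, 10.65 and 10.63 at 2 h, 10.97, 11.04 and 10.88 at 12 h and 10.67, 10.98 and 10.86 at 24 h, for 1, 10 and 20 µM. At 5.5 mM they were 10.69, 10.87 and 11.21 at 2 h, 11.08, 11.04 and 11.01 at 12 h and 10.69, 10.83 and 10.74 at 24 h. The 24 h value was thus above the 2 h value in 3 of 3 pairs at 22.7 mM, by 0.25 on average, and below it in 3 of 3 at 5.5 mM, where the mean was −0.17 and the pair at 1 µM was equal to 2 decimals. The difference of the 2 effects was 0.42 (SE 0.174, 95% interval 0.05 to 0.79, limma adjusted p = 0.399). It was 0.47 in the 18 arrays (adjusted p = 0.448) and 0.23 with scan day as a block (adjusted p = 0.782). The dimmer Cpe probe set 1439437_x_at was the other of the 14 with an unadjusted p under 0.05 in this test (−0.63, adjusted p = 0.412, with −0.46 in the 18 arrays and −0.28 with scan day as a block), where 0 of all probe sets passed (0%) and 1461 had an unadjusted p under 0.05.

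Between 24 and 2 h the differences of Ins2 (0.02), the 4 Iapp probe sets (−0.04 to 0.07), Chga (0.01), Chgb (−0.05), Scg2 (−0.07), Scg3 (−0.06), Scg5 (−0.09), Pcsk1n (0.08) and Cpe (−0.01 and 0.11) had adjusted p of 0.839 to 0.992. Their 95% intervals lay between −0.33 and 0.46. The 18 arrays gave larger values for Pcsk1n (0.26, 95% interval 0.02 to 0.49), Cpe 1415949_at (0.17, 0.01 to 0.32) and Chga (0.12, 0.02 to 0.23), with adjusted p of 0.371 to 0.402. There Chgb was at 0.06, Iapp 1437323_a_at at 0.07 and Cpe 1439437_x_at at 0.00.

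**Figure D3:**
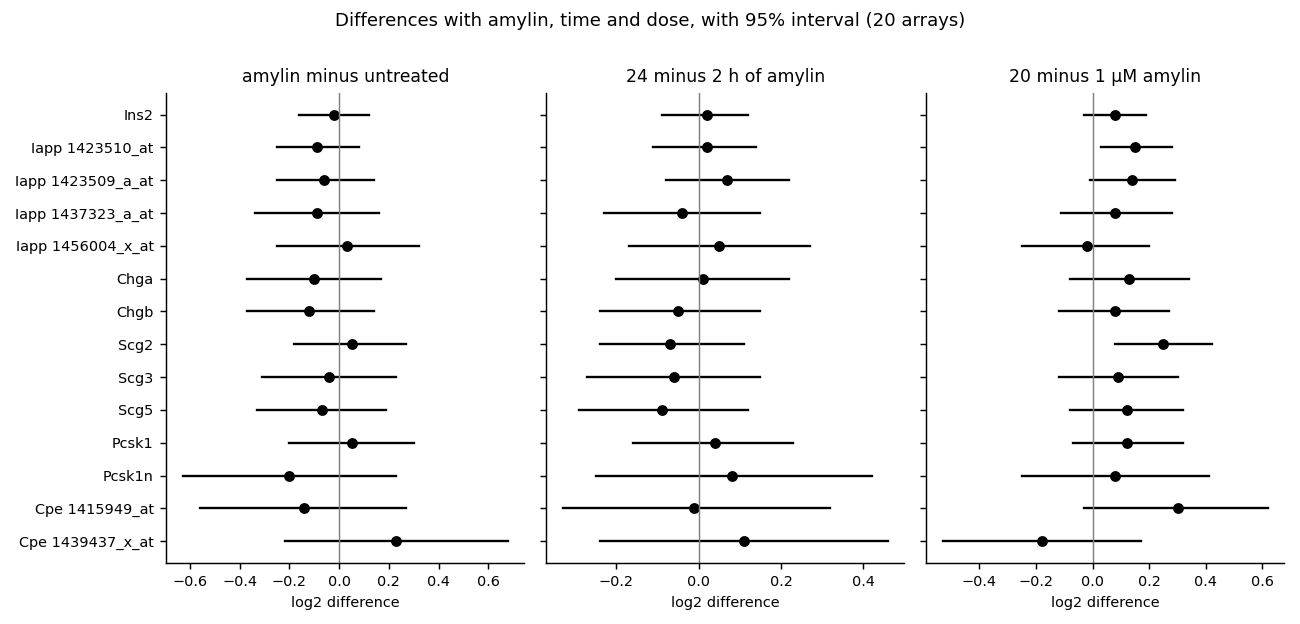
Log2 differences of the 14 probe sets (rows) with 95% intervals from the fit of 20 arrays, for amylin minus untreated (left), 24 minus 2 h of amylin (middle) and 20 minus 1 µM amylin (right); the horizontal scales differ between panels. No probe set passed in any panel, and the intervals of Scg2 (0.08 to 0.42) and Iapp 1423510_at (0.03 to 0.28) in the right panel do not reach 0.

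Dose was compared at 1, 10 and 20 µM in 6 sets matched on time and glucose. Between 20 and 1 µM 0 of 14 probe sets passed by limma, as did 0 of all 12228 (0%), with 272 of all (2.22%) and 2 of the 14 at an unadjusted p under 0.05. Differences were positive for 12 of the 14, with a median of 0.107 against 0.003 for all tested probe sets. The 14 are not independent, since they share the same arrays and several are of the same gene. The share of positive differences among all probe sets is not given here. Between 10 and 1 µM 0 of the 14 and 0 of all passed (0%), 0 of the 14 and 291 of all (2.38%) had an unadjusted p under 0.05, and 10 of the 14 differences were positive.

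Scg2 was 1 of those 2. At 22.7 mM its values at 2, 12 and 24 h were 13.01, 12.65 and 12.64 at 1 µM, 13.02, 13.05 and 13.04 at 10 µM and 13.13, 13.05 and 13.12 at 20 µM. At 5.5 mM they were 13.06, 13.08 and 13.06 at 1 µM, 13.15, 13.00 and 12.96 at 10 µM and 13.18, 13.20 and 13.33 at 20 µM. Each of the 6 values at 20 µM was above its partner at 1 µM, by 0.12 to 0.48, and the doses overlapped. The difference was 0.25 (SE 0.080, 1.19-fold, limma adjusted p = 0.998) and 0.20 in the 18 arrays (adjusted p = 1). The 2 lowest values, at 1 µM and 22.7 mM, were from the array of 12 h that stood apart and from that of 24 h, which did not.

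The other member with an unadjusted p under 0.05 was Iapp 1423510_at, which averaged 13.70 ± 0.165 at 1 µM, 13.75 ± 0.102 at 10 µM and 13.85 ± 0.0696 at 20 µM (SD, n = 6 each). It differed by 0.15 between 20 and 1 µM (SE 0.059, limma adjusted p = 0.998), higher in 5 of 6 pairs, and by 0.11 in the 18 arrays. The Iapp probe sets 1423509_a_at, 1437323_a_at and 1456004_x_at differed by 0.14, 0.08 and −0.02, higher in 3, 3 and 4 of 6 pairs. Cpe 1415949_at averaged 11.71 ± 0.339, 11.85 ± 0.349 and 12.01 ± 0.231 at 1, 10 and 20 µM (SD, n = 6 each). It was higher at 20 than at 1 µM in 6 of 6 pairs (difference 0.30, SE 0.152, adjusted p = 0.998), and the difference was 0.18 in the 18 arrays. The dimmer Cpe probe set 1439437_x_at had the other sign, at −0.18 (higher in 2 of 6 pairs) and −0.02 in the 18 arrays. Whether dose acted differently at 24 and 2 h was tested as well, and 0 of the 14 and 0 of all probe sets passed by limma (0%), with 0 of the 14 and 148 of all (1.21%) at an unadjusted p under 0.05. The difference there was 0.26 for Iapp 1423510_at (SE 0.145) and 0.25 for Scg2 (SE 0.197).

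Scg5 was 1 of 2 members, with the dimmer Cpe probe set (−0.66, but −0.33 in the 18 arrays and −0.04 with scan day as a block), whose effect of dose differed between the glucose levels at an unadjusted p under 0.05, as did 500 of all, and neither passed. It averaged 11.43 ± 0.202, 11.73 ± 0.0722 and 11.78 ± 0.105 at 1, 10 and 20 µM at 22.7 mM, against 11.83 ± 0.0699, 11.81 ± 0.177 and 11.73 ± 0.071 at 5.5 mM (SD, n = 3 each). The value at 20 µM was above that at 1 µM in 3 of 3 pairs at 22.7 mM and in 0 of 3 at 5.5 mM. The difference of the 2 effects was 0.44 (SE 0.162, 95% interval 0.09 to 0.79, limma adjusted p = 0.94), 0.33 without the arrays that stood apart (adjusted p = 0.991) and 0.17 with scan day as a block (adjusted p = 0.949). By limma 0 of all 12228 passed this test or that of glucose by amylin (0% each), and for glucose by amylin 0 of the 14 and 426 of all had an unadjusted p under 0.05.

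**Figure D4:**
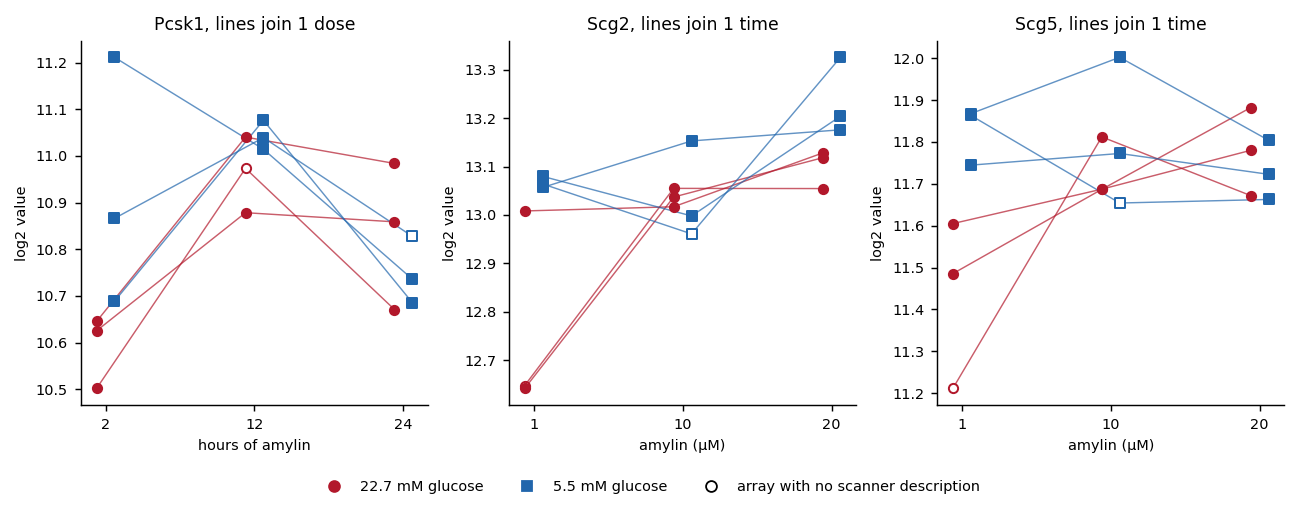
Log2 values of Pcsk1 by hours of amylin (left, each line joining 1 dose at 1 glucose level) and of Scg2 (middle) and Scg5 (right) by amylin dose (each line joining 1 time at 1 glucose level), with red circles for 22.7 mM, blue squares for 5.5 mM and open symbols for the arrays with no scanner description. The 12 h values of Pcsk1 lie between 10.88 and 11.08, Scg2 is higher at 20 than at 1 µM along all 6 lines, and Scg5 is lowest at 1 µM and 22.7 mM.

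How much the members varied differed widely. In the 18 arrays the SD of Chga (0.0722), Scg3 (0.0762) and Ins2 (0.0772) was larger than that of only 0.3%, 0.4% and 0.5% of tested probe sets, whose median SD was 0.165. Pcsk1n lay at the other end, with an SD of 0.342 and a range of 1.27, above 95.5% of tested probe sets. Its lowest values in the 18 were 10.43 at 5.5 mM, 10 µM and 2 h and 10.47 at 5.5 mM, 1 µM and 12 h, and its highest were 11.71 and 11.65 at 22.7 mM (1 µM for 24 h and 20 µM for 12 h). On all 20 arrays the SD of Chga and Scg3 was 0.171 and 0.148, larger than that of 30.4% and 17% of tested probe sets, whose median was 0.202. The SD of Ins2 was 0.0749 there, larger than that of 0.1%. Whether compression at the top of the scale, named above for Ins2, also narrowed the spread of Chga and Scg3 was not tested. On the 2 arrays that stood apart Chga was at 13.04 (22.7 mM) and 13.01 (5.5 mM), while the other 18 arrays ran from 13.41 to 13.69. Both arrays lay below the other 18 for 4 of the 14 probe sets (28.6%) and for 13.1% of all tested, and above them for 1 of the 14 (7.14%) and for 14.6% of all. The means of the fibroblast, acinar, and immune and endothelial marker lists were higher on these arrays, as given above, although Cd68 was lower (5.6 against 5.75). Most of these markers lay below the filter on low values, and the medians of the 2 arrays were higher as well. Whether the marker means reflect cell types was not tested, nor was their part in these values.

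Where a gene had several probe sets, their agreement over the arrays was described by Pearson's r, the points sharing arrays and normalization. The Iapp pair 1423509_a_at and 1437323_a_at had r = 0.78 over 20 arrays and 0.92 over 18. The pair 1423510_at and 1456004_x_at had −0.07 over 20 and 0.32 over 18, so the brightest and the dimmest Iapp probe sets did not follow each other. For Cpe the 2 probe sets had r = −0.75 over 20 arrays and −0.04 over 18.

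**Figure D5:**
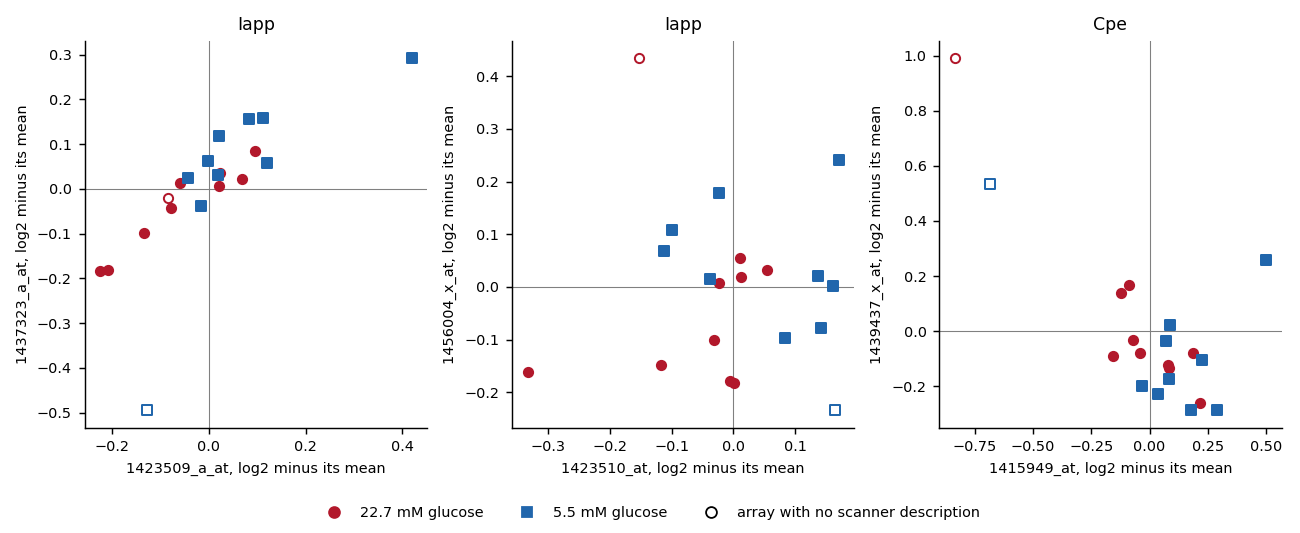
Log2 value minus the probe set's own mean over 20 arrays, for pairs of probe sets of Iapp (left and middle) and Cpe (right), 1 point per array, with red circles for 22.7 mM, blue squares for 5.5 mM and open symbols for the arrays with no scanner description. The left pair follows a common line apart from 1 open square, and the negative r of the Cpe pair (−0.75) rests on the 2 open symbols at the upper left.

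Outside the set, the probe sets whose centred values most resembled those of Ins2 over the 20 arrays, among 12214, were Nop56 (r = 0.82, and 0.79 over 18) and Me2 (0.82 and 0.76). For Iapp 1423510_at they were Nono (0.77 and 0.71) and Septin2 (0.75 and 0.69). For Pcsk1 they were Scp2 (0.81 and 0.85) and Magt1 (0.79 and 0.79). These are the highest of many values and describe these arrays only.

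Other genes of the granule and prohormone pathway were listed for comparison. Of the 37 symbols 29 had a single-gene probe set, 46 in all, and 33 probe sets of 25 genes were tested. With glucose 1 of 33 passed on the 20 arrays (3.03%, 0 higher and 1 lower), against 8.12% of all probe sets. This was the weaker probe set of Ica1, an islet autoantigen of the Golgi and young granules, which fell by 1.03 (1431644_a_at, SE 0.183, limma adjusted p = 0.005). It differed by −0.35 with the actin signal as a covariate (SE 0.246, adjusted p = 0.662), and the brighter Ica1 probe set differed by −0.09 (adjusted p = 0.408).

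In the 18 arrays 5 of the 33 passed (15.2%), a share near the 13.4% of all probe sets in that fit. The probe set of Slc18a1, a vesicular monoamine transporter, rose by 0.31 (adjusted p = 0.0168), and the same probe set of Ica1 fell by 1.19. The remaining 3 were single probe sets of genes whose other tested probe sets did not pass. For Vps41, of the HOPS tethering complex, 1433666_s_at rose by 0.25 (adjusted p = 0.0325), while 1433665_at differed by 0.02 and 1437901_a_at by −0.40 (adjusted p = 0.894 and 0.0513). For Cpd, a carboxypeptidase of the Golgi, 1418019_at fell by 0.39 (adjusted p = 0.00872), and the brighter 1434547_at differed by −0.15 (adjusted p = 0.162). For Ero1b, the oxidase that helps form disulfides in proinsulin, 1425705_a_at fell by 0.33 (adjusted p = 0.0151), and the brighter 1434714_at differed by −0.01 (adjusted p = 0.913). Ptprn, which encodes a granule membrane autoantigen of islets, differed by 0.13 (adjusted p = 0.36), Ptprn2 by −0.05 (adjusted p = 0.817) and Pam, which amidates peptides including amylin, by −0.08 (adjusted p = 0.496). None of the 33 passed for amylin, time or dose. Pcsk2, Vgf and Slc30a8 were not analysed here.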

How the data were processed

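MIN6 RNA of 20 conditions was measured on 20 arrays, 1 each. The deposited values are log2 expression per probe set, for which RMA, affy 1.12.2 and R 2.4.0 are named per the submitters' processing notes. RMA as usually run corrects background, quantile normalizes the arrays and summarises the probes of a set. Whether all arrays went through a single run is not given in the sources used here. Scanner descriptions of 18 arrays gave only the scan day and chip lot (1 lot), per the file headers. Precision is limited by the number of arrays, which hold no counts.

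Of 22690 probe sets, 64 controls, 691 with several genes and 1555 with none were left out, as was the 40% of the remaining 20380 with the lowest means (cutoff 6.71 on the log2 scale). The other 12228 were tested with limma 3.58.1 (lmFit, eBayes with trend=TRUE, R 4.3.3) in a model of glucose plus 10 amylin conditions, with 9 residual degrees of freedom. P-values were adjusted over the 12228 by the Benjamini-Hochberg method at 0.05. How amylin, time and dose effects differed by glucose came from a model with interactions (8 residual degrees of freedom). The analysis was tested on simulated data. Probe sets were named by the platform annotation, which was checked against RefSeq and changed no symbol. Related genes were named where called, up to 4 in each direction, and Pcsk2, Pam, Vgf, Ptprn, Ptprn2 and Slc30a8 were to be given by value where they had a tested probe set, which Pam, Ptprn and Ptprn2 did. For Ins2, Iapp and Pcsk1 the 2 probe sets of highest r were named, with arrays centred on their medians.

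Members, lists, tests and alternatives were chosen with earlier results of these data known. Alternatives were other filters, centring or quantile normalization, 1 probe set per gene, eBayes without trend, an additive model, scan day, the actin signal, and arrays left out. Scan day in the additive model was added after the data were seen.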

Additional observations from a re-analysis of the deposited data

Results flagged for a closer look

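Within each glucose level (10 arrays), a value was marked where its gap to the nearest of the others exceeded Dixon's limit. This marked 11 values in 28 sets of 10 arrays. Among independent repeats the limit marks about 1 in 20 sets by chance. Here the 10 arrays of a set are of different amylin conditions and the sets share arrays, so that rate gives no baseline. Of the 11 values, 10 were on the 2 arrays with no scanner description. On the array of 22.7 mM, 1 µM and 12 h these were Iapp 1456004_x_at at 8.58 (next value 8.2), Chga at 13.04 (13.45), Scg3 at 11.97 (12.39), Pcsk1n at 10.35 (11.07), Cpe 1415949_at at 11.03 (11.71) and Cpe 1439437_x_at at 8.49 (7.67). On the array of 5.5 mM, 10 µM and 24 h they were Iapp 1437323_a_at at 11.78 (12.24), Chga at 13.01 (13.41), Chgb at 12.76 (13.06) and Cpe 1415949_at at 11.18 (11.83). The remaining one was Iapp 1423509_a_at at 13.25 on the array of 5.5 mM, 20 µM and 24 h, where the next highest array of that level had 12.95.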

How the results depend on the processing

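The labels carry no replicate numbers, so none could serve as a block; the main model already matches arrays by amylin condition. The glucose test called 0 of the 14 granule probe sets on 20 arrays, 2 with scan day as a block, 1 with scan day in the additive model, 4 when both arrays lacking a scanner description were dropped, and 0 to 3 with 1 array left out in turn. The calls with 1 array left out came from omitting the array of 5.5 mM, 10 µM and 24 h (2 called) or its partner at 22.7 mM (3 called). Both omissions take the same pair out of the glucose difference, so they are not separate results. In the other contrasts 0 of the 14 passed under each alternative run. Over all probe sets the glucose count of 993 became 408 with 1 probe set per gene (7436 tested), 2006 with scan day as a block, 1858 with scan day in the additive model, 1640 without the 2 arrays, 0 with the actin signal as a covariate and 418 to 1518 with 1 array left out. The count of 2 between 24 and 2 h became 5 with the lowest 60% left out, 0 with centred arrays, 1 after quantile normalization, 4 with 1 probe set per gene, 4 in the additive model, 8 with scan day as a block, 6 with scan day in the additive model, 1 without the 2 arrays, 0 with the actin covariate and 0 to 222 with 1 array left out. The count of 10 between 12 and 2 h became 4 with centred arrays, 61 with scan day in the additive model, 34 without the 2 arrays and 0 to 17 when single arrays were omitted. From 12 to 24 h such omission gave 0 to 14, and for the glucose interactions 0 to 52, with 1 when scan day was a block. Fewer probe sets were tested with 1 probe set per gene or the lowest 60% left out, and omitting arrays leaves fewer samples. Why the counts changed was not tested for any setting. No called difference reversed. Of the 14 differences, those that changed sign under some alternative numbered 8 for glucose, 8 for amylin, 10 for 24 minus 2 h, 10 for 12 minus 2 h, 13 for 24 minus 12 h, 5 for 20 minus 1 µM, 9 for 10 minus 1 µM, 6 for dose by time, and 7, 10 and 9 for glucose by amylin, time and dose. The matched fit with scan day was not run for amylin, 12 minus 2 h, 24 minus 12 h and dose, because the single array of day 1 has no partner of known day. For the interactions, omitting either untreated array could not be fitted.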
